A study of Mus musculus with 7 samples.

Results

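Motile cilia are the beating projections of the multiciliated cells that line the airways and move mucus out of the lung. Their core, the axoneme, is a ring of microtubule doublets around a central pair, on which outer and inner dynein arms generate the beat, while radial spokes, the nexin-dynein regulatory complex and the central apparatus control it. The genes of this machinery are switched on together in multiciliated cells by the transcription factors FOXJ1 and the RFX family. The members described here were chosen by symbol. They are the genes named Dnah, Dnaic, Dnaaf, Dnal, Cfap, Rsph, Tekt, Drc or Odf, together with the regulator Foxj1, the axoneme genes Hydin, Ccdc39 and Ccdc40, and the ciliated cell genes Tppp3, Sec14l3 and Tmem212. The rule found 87 members among the 28828 entries of the count table. One of them, Dnah2os, is an antisense RNA of Dnah2.

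RNA sequencing measured whole lung of C57BL/6 mice, wild type or with a knockout of Scgb3a2, a secretoglobin of airway secretory cells. There were 4 wild type libraries (WT2, WT3, WT4 and WT6) and 3 knockout libraries (KO3, KO4 and KO5), which carry the title number after the genotype. The labels give no age, sex or treatment, no description of the knockout allele, and do not state that libraries are from separate mice. The p-values therefore measure a spread between libraries that may be technical. The comparison asks whether the transcripts of motile cilia differ in lungs that lack Scgb3a2.

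The libraries held 13071262 to 16480006 counts. Scgb3a2 had 2636 to 4204 counts in wild type and 19 to 37 in knockout libraries, as labelled. The tissue label was met, with the alveolar gene Sftpc at 5890 to 8750 CPM (counts scaled to a common library size, with totals adjusted by the TMM method) and the club cell gene Scgb1a1 at 6760 to 14600 CPM. All 10 ciliated cell markers listed for the check, 4 of which are members, had counts in every library, from Pifo at 2.88 to 6.32 CPM to Sec14l3 at 1140 to 1480 CPM. WT6 and KO5, which stood apart in an earlier analysis of these data, did so here in the mesothelium markers. The median deviation of these 10 genes from their own mean log2 CPM was 0.89 in WT6 and 0.62 in KO5, and -0.87 to -0.08 in the other libraries. In bulk lung, fewer ciliated cells and less RNA per ciliated cell cannot be told apart.

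Regulatory sequence near the members is shown first. RFX factors bind the X-box, of which GTTGCC (reverse GGCAAC) is one arm. RefSeq start sites on GRCm38.p6 could be matched by symbol for 72 members. In the 250 bases before the start, either strand, the X-box arm was present for 21 of these 72 members (29.2%) and for 11.8% of all 27025 genes in the promoter set. The whole X-box was searched in 1 fixed form only, both arms with a spacer of set length, in either orientation. This form, whose matches can overlap those of the arm, was found for 1 member, Cfap298 (1.39%, against 0.666% of all genes). Whole X-boxes with other arm bases or spacer lengths were not searched, so this count can miss members that have one. The forkhead motifs TGTTTAC and TGTTTGT were found for 4 members (5.56%, against 3.54%) and 2 members (2.78%, against 6.73%). These matches are letters in a window and not measured binding. The following stretches of 80 bases, 5′ to 3′ on the gene's strand, were chosen because they hold the X-box arm and no annotated exon. Those of the tektins Tekt1 (chr11:72361883-72361962, minus strand) and Tekt2 (chr4:126325689-126325768, minus strand) and of Cfap97d2 (chr8:13705809-13705888, plus strand) end at the last base before the start. Those of the inner arm heavy chains Dnah7a (chr1:53706935-53707014, minus strand) and Dnah7c (chr1:46425269-46425348, plus strand) lie further upstream. Lined up at the X-box arm without gaps, they have 61 of 80 bases the same, which does not measure how alike the genes are. Capitals mark the X-box arm in either orientation.
Tekt1: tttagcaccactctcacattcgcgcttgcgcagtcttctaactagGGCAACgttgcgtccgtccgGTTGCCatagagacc
Tekt2: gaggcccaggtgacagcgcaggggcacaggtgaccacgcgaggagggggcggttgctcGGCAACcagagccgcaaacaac
Cfap97d2: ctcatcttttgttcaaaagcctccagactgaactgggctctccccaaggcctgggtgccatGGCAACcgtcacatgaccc
Dnah7a: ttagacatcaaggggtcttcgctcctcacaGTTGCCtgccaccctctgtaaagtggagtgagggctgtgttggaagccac
Dnah7c: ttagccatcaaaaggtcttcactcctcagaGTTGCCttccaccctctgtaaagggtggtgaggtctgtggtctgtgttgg

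The axoneme programme was present in every library and no member passed the test between genotypes. Of the 87 members, 81 passed the filter on low counts, and 80 of these had at least 10 counts in all 7 libraries. The 6 others (Cfap97d1, Odf3, Odf3l1, Odf4, Rsph6a and Tekt3) had at most 49 counts over all libraries together. Several of them encode parts of the sperm flagellum. Rsph6a, a radial spoke head gene of sperm, had counts of 2, 1, 0 and 0 in WT2, WT3, WT4 and WT6 and of 0, 1 and 0 in KO3, KO4 and KO5. Its relative Rsph4a, a spoke head gene of airway cilia, had 283 to 424 counts.

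Knockout against wild type, edgeR's quasi-likelihood test called 0 of 81 members at an adjusted p under 0.05, where 0.0353% of the 19832 genes tested were called. An unadjusted p under 0.05 was reached by 1 member, Dnali1, on the lower side, against 2.87% of all genes in either direction and 1.05% on the lower side. DESeq2 also called 0 members, with 0.277% of genes called, and again only Dnali1 had an unadjusted p under 0.05. The smallest adjusted p of a member was 0.9998 in edgeR. The values lay mostly on the lower side. The log2 fold change, knockout minus wild type, was below 0 for 64 of 81 members (79.0%) and for 52.0% of all genes tested. The median was -0.077 over the members and -0.0068 over all genes, with a range over the members from -0.67 (Tekt5) to 0.29 (Dnah14). Without KO4 the median was -0.047 with 54 members below 0. Leaving out both WT6 and KO5 gave -0.12 and 66 members below 0. The 95% interval of the log2 fold change reached a median of 0.32 to either side. It lay within a 2-fold change in both directions for 79 members and within a 1.5-fold change for 63. The plot of fold changes shows these intervals for the 37 members named by rule.

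**Figure D1:**
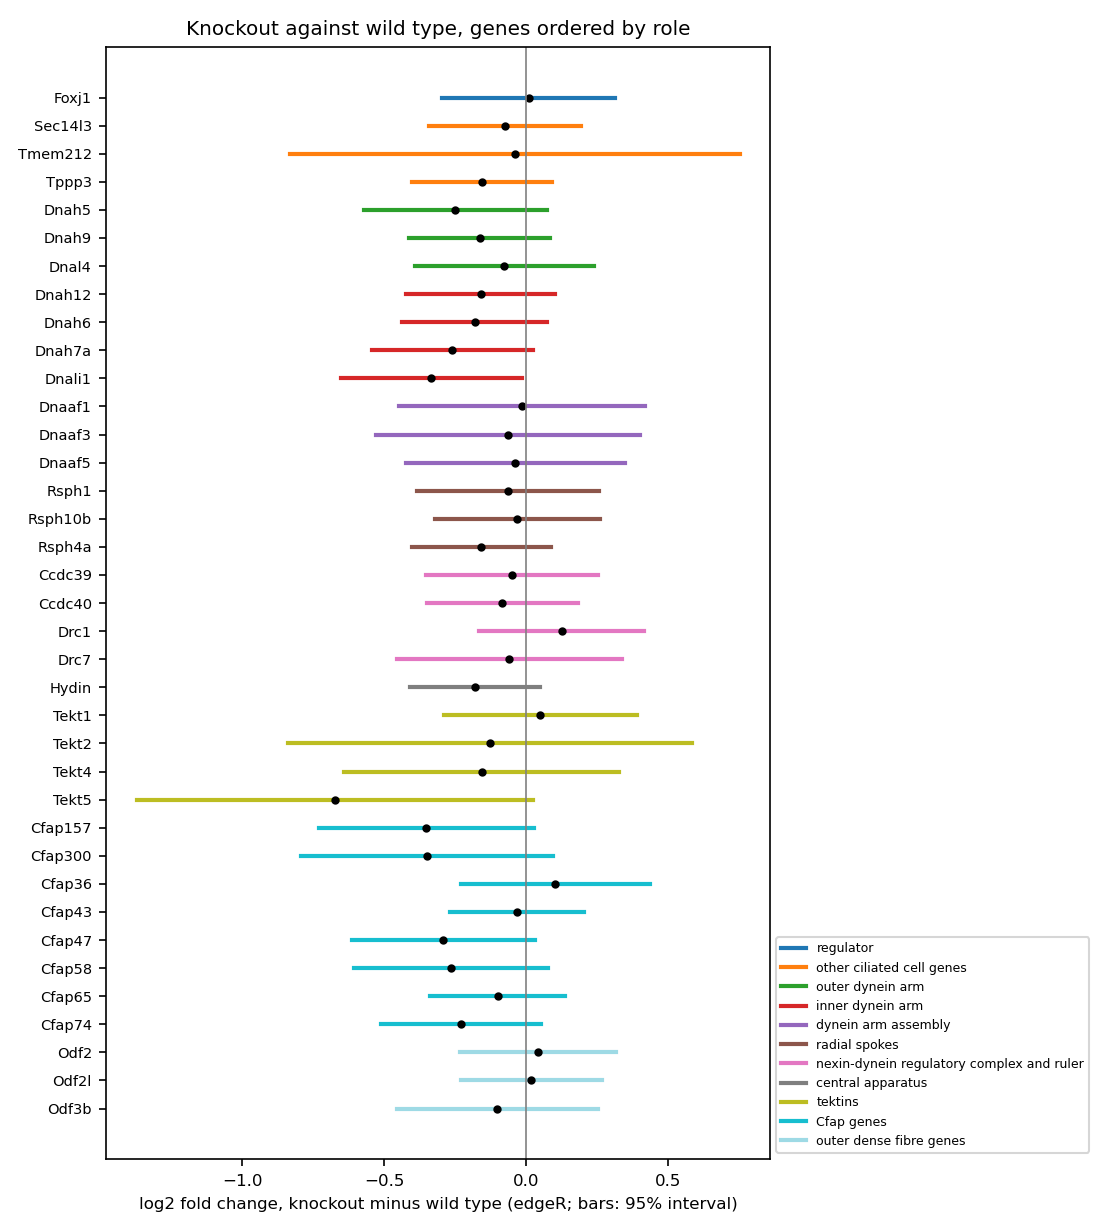
Log2 fold change of 37 members, knockout minus wild type, on the horizontal axis, as a black point with the 95% interval of edgeR's test as a bar, coloured by role. Nearly all bars cross 0, that of Dnali1 (-0.65 to -0.02) lies just below it, and most points lie to the left of 0.

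The regulator and the general ciliated cell genes had overlapping levels in both genotypes. Foxj1, the transcription factor of the motile cilia programme (chromosome 11, 116330704 to 116335399, minus strand, GRCm38), had 77.5, 62.4, 62.2 and 48.8 CPM in WT2, WT3, WT4 and WT6 and 66.4, 64.5 and 58.5 CPM in the knockouts KO3, KO4 and KO5. The knockout values lay inside the wild type range, whose ends were WT2 and WT6. Foxj1 had a log2 fold change of 0.01 ± 0.14 (SE) and a 95% interval of -0.30 to 0.32. Its sign turned without WT6 (-0.09), KO3 (-0.03) or KO4 (-0.0081) and among the 5 libraries without WT6 and KO5 (-0.04).

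Sec14l3, which encodes a lipid-binding protein of the SEC14 family, took 34.3% of all counts of the members. It had 1320, 1480, 1358 and 1252 CPM in the wild type libraries and 1408, 1300 and 1145 CPM in the knockout libraries. The groups overlapped, and KO5 and WT6 were the lowest libraries. Its log2 fold change of -0.07 (95% interval -0.34 to 0.19) turned to 0.0062 without KO5.

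Tppp3, of a family of tubulin-binding proteins, had 207, 159, 163 and 171 CPM in wild type and 163, 148 and 161 CPM in knockout libraries, a log2 fold change of -0.16 ± 0.11 (SE). WT2 was the high library and KO4 the low one. The membrane protein gene Tmem212 behaved differently from Sec14l3 and Tppp3. It had 10.04, 11.7 and 10.8 CPM in WT2, WT3 and WT4 but 23.5 CPM in WT6, and 10.1 and 10.9 CPM in KO3 and KO4 but 20.02 CPM in KO5. The pair that was high in mesothelium markers was thus high in Tmem212 in both genotypes, and the part of the mesothelium in this was not tested. Pifo, a ciliated cell marker outside the members, was also highest in WT6 and KO5, at 6.32 and 5.93 CPM against 2.88 to 4.27 CPM. The log2 fold change of Tmem212 was -0.04 with a wide 95% interval of -0.83 to 0.75. It turned to 0.33 without WT6, 0.14 without KO3 and 0.10 without KO4.

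**Figure D2:**
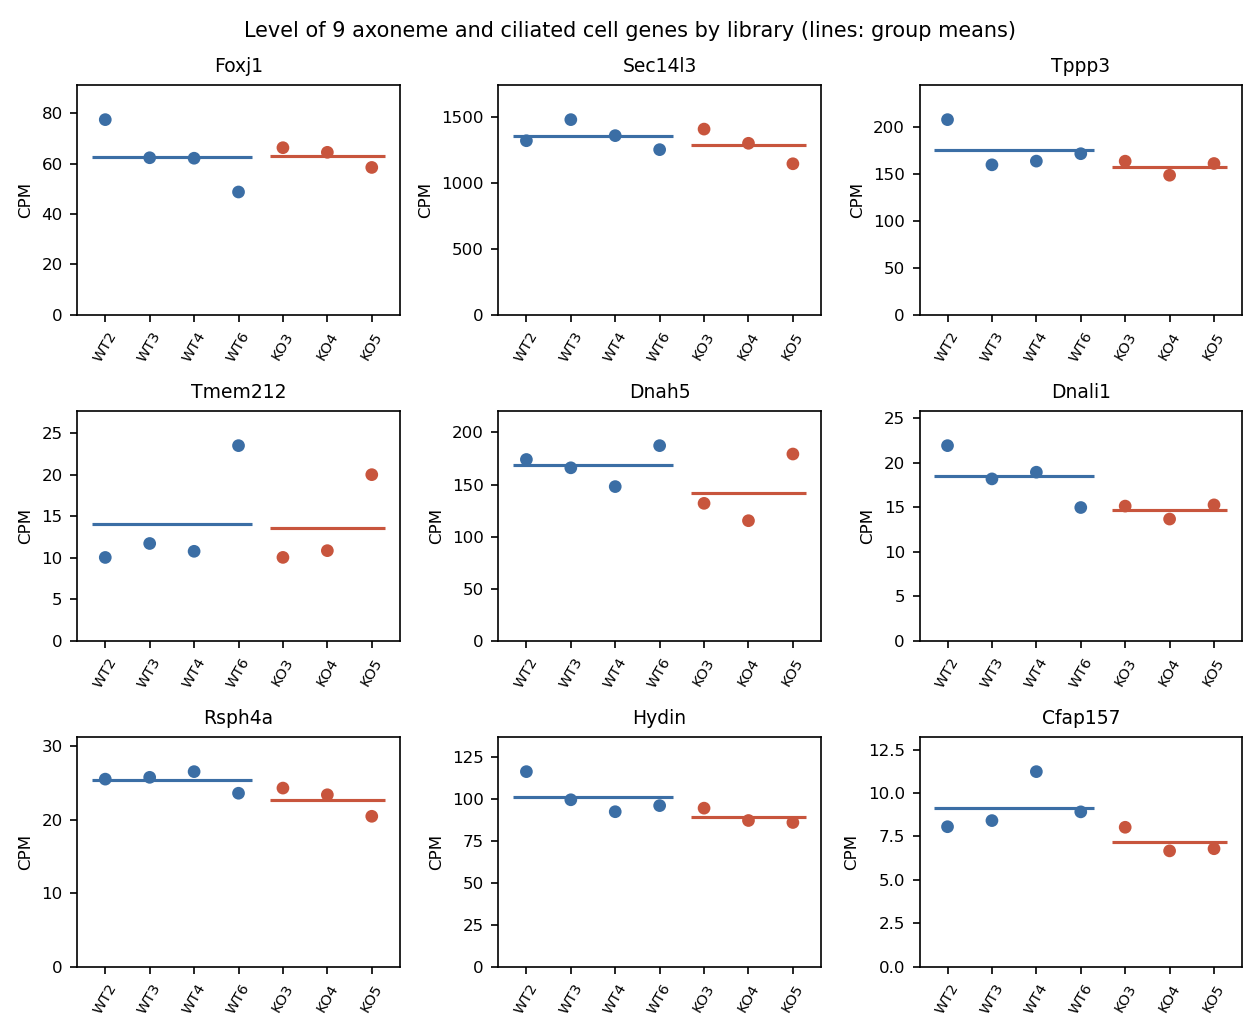
Level in CPM (vertical axes, from 0) of 9 members in each library, with wild type in blue, knockout in red and group means as lines. The groups overlap in 8 panels, Cfap157 is the exception, and in Tmem212 WT6 (23.5) and KO5 (20.02) stand above all other libraries.

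Per length of exon, Sec14l3 and Tppp3 were far above the structural genes. Sec14l3 had a mean of 475 CPM per kilobase of exon, Tppp3 90.7, Foxj1 24.0 and Tmem212 19.4. The highest structural member, Cfap43, required for axoneme structure in cilia and sperm, had 16.8 CPM per kilobase. The median over the 79 tested members with a known length was 4.32 CPM per kilobase, close to the 3.76 of all genes tested, and 9 members were above 10. Heavy chain genes of the sperm flagellum were low in lung, with 0.40 CPM per kilobase for Dnah8 and 0.85 for Dnah17, against 10.1 for Dnah5 and 5.59 for Dnah9.

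The outer dynein arm, which sets the beat frequency, had 9 members, of which 7 had a negative log2 fold change and 0 were called. Dnah5 (chromosome 15, 28203752 to 28472052, plus strand), the outer arm heavy chain commonly mutated in primary ciliary dyskinesia, had 174, 166, 148 and 187 CPM in WT2, WT3, WT4 and WT6. It had 132, 115 and 179 CPM in the knockouts KO3, KO4 and KO5. KO3 and KO4 were below all wild type libraries, and KO5 was within them. Dnah5 had a log2 fold change of -0.25 ± 0.15 (SE), an unadjusted p of 0.117 and an adjusted p of 0.9998 in edgeR. Without KO5 it was -0.45 (adjusted p = 0.9992), and leaving out both WT6 and KO5 gave -0.39 (adjusted p = 0.773), again from edgeR. Keeping them with a model term of their own gave -0.30 (adjusted p = 0.535). Dnah9, the partner heavy chain of the distal cilium, ran in parallel at 95.7, 92.2, 85.4 and 101 CPM in wild type and 80.6, 73.2 and 96.7 CPM in knockout libraries. The heavy chain Dnah11 had 61.98 to 73.5 CPM in wild type and 62.4 to 71.2 CPM in knockout libraries, a log2 fold change of -0.01. Of the smaller chains, Dnal4 had a log2 fold change of -0.08 and Dnal1 of -0.04, while the intermediate chains Dnaic1 and Dnaic2 had -0.04 and -0.12.

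The inner dynein arm, which shapes the bend, had 11 members, 9 of them with negative values and 0 called. Dnali1, an inner arm light intermediate chain (chromosome 4, 125055338 to 125065703, minus strand), had the smallest p of all members. Its levels were 21.9, 18.2, 18.9 and 14.95 CPM in WT2, WT3, WT4 and WT6 and 15.1, 13.7 and 15.2 CPM in the knockouts KO3, KO4 and KO5. WT6 lay among the knockout libraries, and the other wild type libraries were above all of these. Dnali1 had a log2 fold change of -0.33 ± 0.15 (SE), an unadjusted p of 0.0413 and an adjusted p of 0.9998 in edgeR. The heavy chain Dnah6 had 157 to 185 CPM in wild type, with KO3 at 155, KO4 at 126 and KO5 at 169 CPM. Dnah12 had 104 to 131 CPM in wild type, with KO3 at 102, KO4 at 91.4 and KO5 at 122 CPM. In both of these KO4 was the lowest library and KO5 lay inside the wild type range. Dnah7a, Dnah7b and Dnah7c are close copies whose reads the counting could have split, so their separate values are uncertain. Their log2 fold changes were -0.26, -0.11 and -0.13. The antisense RNA Dnah2os had 3 to 16 counts per library, and 36.3% of its exon length overlaps Dnah2. No source used here states whether the counting used strand, so the reads of this pair cannot be separated.

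The cytoplasmic assembly factors of the dynein arms had overlapping levels in both genotypes. All 4 had negative values between -0.21 and -0.01 and 0 were called. Dnaaf5 had 16.1 to 25.8 CPM in wild type and 16.04 to 22.9 CPM in knockout libraries, Dnaaf3 had 3.73 to 5.39 and 3.75 to 5.46 CPM, and Dnaaf1 had 4.84 to 7.397 and 5.13 to 6.34 CPM. The ranges of the genotypes overlapped for all 3 genes.

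Radial spoke genes had 7 tested members, 4 with negative and 3 with positive values. Rsph4a had 25.5, 25.7, 26.5 and 23.6 CPM in WT2, WT3, WT4 and WT6 and 24.3, 23.4 and 20.5 CPM in the knockouts KO3, KO4 and KO5. The groups overlapped through KO3 and WT6. The log2 fold change of Rsph4a was -0.16 (95% interval -0.40 to 0.09), that of the spoke head gene Rsph1 was -0.06 and that of Rsph10b -0.03. Rsph9, another spoke head gene, was named after its values were seen. It shared the pattern of Tmem212, with 10.9 CPM in WT6 and 10.2 CPM in KO5 and 5.94 to 6.98 CPM in the other 5 libraries.

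The nexin-dynein regulatory complex and the ruler proteins that space the axonemal repeat had 4 negative values and 1 positive value. Drc1, a scaffold of the complex, was the positive one, with 13.7 to 17.1 CPM in wild type and 15.3 to 17.99 CPM in knockout libraries (log2 fold change 0.13, 95% interval -0.16 to 0.42). Drc7 had a log2 fold change of -0.06. The ruler genes Ccdc39 and Ccdc40 had log2 fold changes of -0.05 and -0.08. Hydin, a large protein of the central apparatus, had 116, 99.3, 92.2 and 95.8 CPM in WT2, WT3, WT4 and WT6 and 94.3, 87.0 and 85.8 CPM in the knockouts KO3, KO4 and KO5. Only KO3 overlapped the wild type range, and the log2 fold change was -0.18 (95% interval -0.41 to 0.05).

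Tektins, filaments inside the doublet wall, had 4 tested members. Tekt5, a tektin enriched in sperm, had the largest negative value of all members, -0.67 ± 0.32 (SE, edgeR unadjusted p = 0.057), at 41, 20, 22 and 34 counts in WT2, WT3, WT4 and WT6 and 18, 21 and 15 counts in KO3, KO4 and KO5. KO4 overlapped WT3 once scaled, at 1.33 and 1.27 CPM. Of 8 male germ cell markers, 5 are in the table. Acrv1, Prm1 and Ldhc had 0 to 4 counts per library and Zpbp 9 to 18, and Spata18 alone was higher, with 470 to 646 counts. Tekt1 had 7.90 to 9.90 CPM in wild type and 8.19 to 10.1 CPM in knockout libraries. The log2 fold changes of Tekt1, Tekt2 and Tekt4 were 0.05, -0.13 and -0.16. Outer dense fibre genes had 3 tested members with values near 0. Odf2, which also builds centriole appendages in most cells, had 0.04, Odf2l had 0.02 and Odf3b had -0.10.

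The Cfap genes, a broad group of cilia and flagella associated proteins, had 32 tested members, 27 with negative and 5 with positive values, a median of -0.10 and 0 calls. They held the only members whose knockout values all lay below the wild type values. These were Cfap157, Cfap300 and Cfap58, 3 of 81 members (3.7%) against 1.61% of all genes tested, and 0 members lay wholly above, against 2.11%. Cfap157 had 8.06, 8.41, 11.2 and 8.91 CPM in WT2, WT3, WT4 and WT6 and 8.03, 6.67 and 6.79 CPM in the knockouts KO3, KO4 and KO5. The gap between WT2 and KO3 was small, and the log2 fold change was -0.35 ± 0.17 (SE, edgeR unadjusted p = 0.0655). Cfap300, which takes part in dynein arm assembly, had 4.51, 4.65, 6.28 and 5.05 CPM in wild type and 3.37, 4.26 and 4.41 CPM in knockout libraries. Cfap58, of the axoneme of the sperm tail, had 10.3, 9.37, 8.79 and 8.21 CPM in wild type and 8.10, 6.86 and 7.95 CPM in knockout libraries. The genes of the central apparatus Cfap47 and Cfap74 had log2 fold changes of -0.29 and -0.23, and the abundant Cfap43 and Cfap65 of -0.03 and -0.10. Cfap36 was on the other side at 0.10.

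Which members were separated depended on the libraries compared. Among the 5 libraries without WT6 and KO5, 23 of 81 members (28.4%) had both knockout values below all 3 wild type values, against 8.26% of all genes. Only Cfap36 (1.23%) had both above, against 8.52%. The 23 included 7 dynein heavy chains (Dnah3, Dnah5, Dnah6, Dnah7a, Dnah7c, Dnah9 and Dnah12), and 8 members had an unadjusted p under 0.05, all on the lower side, against 1.62% of all genes on that side. edgeR still called 0 members in these 5 libraries, where 0.0701% of genes were called, and 0 with a term for WT6 and KO5, where 0.146% were called. Without KO5, 19 members lay below (against 5.73%) and 1, Cfap36, above (against 5.76%). The count below was 10 without KO3 (against 4.10%), 10 without WT6 (against 3.73%) and 8 without WT4 (against 3.66%). In each of these sets, the count on the lower side, as a share of 81 members, was above the share over all genes. Shares over all genes for the sets without WT2, WT3 or KO4 are not given here. KO4 was the lowest library for 32 of 81 members, and whether the excess over all genes holds without it is not shown.

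Many members deviated in the same direction within a library. For each member and library, the deviation was taken as log2 CPM minus the mean over the 7 libraries. The median deviation over the 81 members was 0.11 in WT2, 0.07 in WT3, -0.01 in WT4 and 0.0009 in WT6, and it was -0.02 in KO3, -0.15 in KO4 and -0.02 in KO5. All genes tested had medians of -0.0003 to 0.019. In WT2, 59 members (72.8%) lay above their own mean, against 52.0% of all genes. In KO4, 63 lay below it and 18 (22.2%) above, against 50.9% of all genes above. KO4 was the lowest library for 32 of 81 members and the highest for 2, and WT2 was the highest for 25. The distance between WT2 and KO4 was 0.26 on the log2 scale.

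The dynein heavy chains deviated from the other members in some libraries, which was noticed in these data and is given as a description. There were 15 of them, with exon lengths of 12009 to 26820 bases, and they held 36.8% of the members' counts without Sec14l3. In KO5 all 15 lay above their own mean, and in WT6 14 did. In WT2 11 of 15 did, and in WT3 9 did. In WT4 and KO4 0 of 15 did, and in KO3 1 did. Their median deviations were 0.17 in WT6, 0.20 in KO5, 0.11 in WT2 and 0.04 in WT3, and -0.07, -0.12 and -0.24 in WT4, KO3 and KO4. The 66 other members had -0.05 in WT6 and -0.07 in KO5. WT6 and KO5, of opposite genotype, thus had positive medians for the heavy chains and negative ones for the other members, while in WT2 and WT3 both medians were positive. Set against the other 5 libraries, the mean log2 CPM of WT6 and KO5 was higher for all 15 heavy chains, from 0.10 (Dnah10) to 0.58 (Dnah14), with a median of 0.25. It was lower for 42 of the 66 others, with a median of -0.09, including Foxj1 at -0.31 and Cfap126 at -0.65. The 24 that were higher included Cfap52 at 0.30 and Cfap47 at 0.28. Dync2h1, an intraflagellar transport gene outside the members, has an exon length of 16348 bases, within the range of the heavy chains. It was also highest in WT6 and KO5, at 119.4 and 118.6 CPM against 87.3 to 111.8 CPM.

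**Figure D3:**
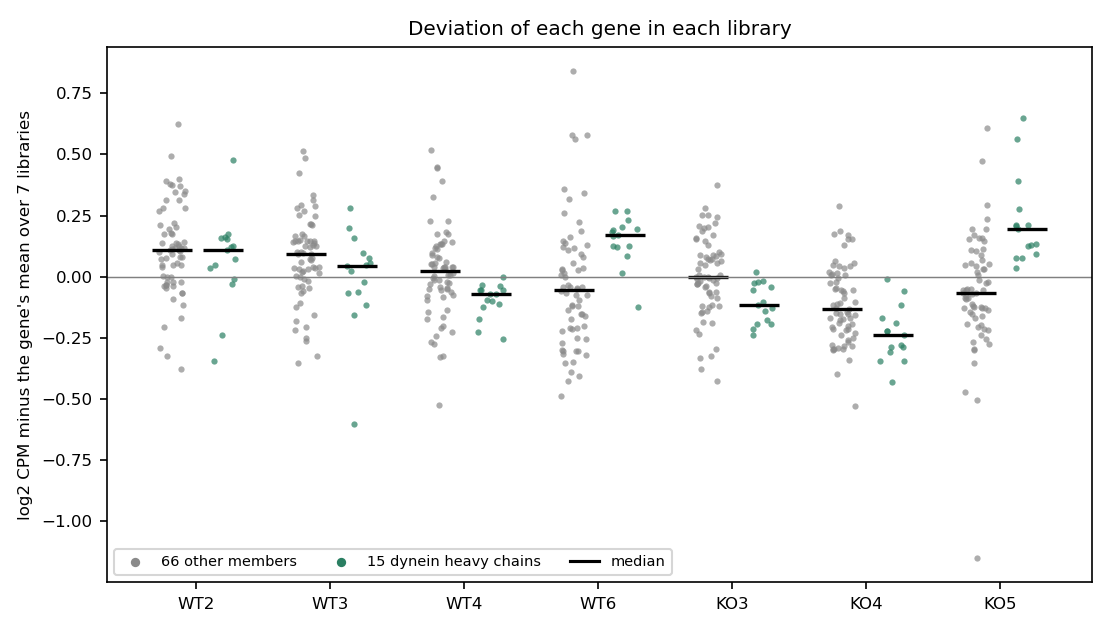
Deviation of each tested member from its own mean log2 CPM (vertical axis) in each library (horizontal axis), dynein heavy chains in green and the 66 others in grey, with black lines for medians. The green points lie mostly above 0 in WT6 and KO5 (medians 0.17 and 0.20), less so in WT2 and WT3, and lowest in KO4 (-0.24), while the grey medians are below 0 in WT6 and in all knockout libraries.

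Other genes as long as the heavy chains had values on both sides of 0 in the comparison of WT6 and KO5 with the rest. Hydin and Cfap54, the 2 other members at least as long as the shortest heavy chain, had -0.10 and 0.08. The 822 tested genes of that length outside the members had a median of 0.0003, with 411 of them higher in WT6 and KO5, against 53.7% of all genes tested. At the short end, Tmem212 had 1.01 and Rsph9 0.73. Among the values that moved with this pair was the median of the mesothelium markers given above. Within that list, Krt19 and Upk1b did not stand higher in the pair. The basal cell markers summed to 8.77 and 7.59 CPM over 6 genes, against 1.69 to 4.28 CPM in the others. Krt15 was the largest part, at 5.19 and 3.61 CPM. Trp63, at 1.54 and 1.66 CPM, lay within the other libraries (0.826 to 1.70 CPM), and Krt14 was highest in KO4. The airway cartilage markers summed to 6.67 and 6.21 CPM, against 3.03 to 4.87 CPM in the others. Of the 9 in the count table, 3 passed the low count filter. Hapln1 was lowest in the pair, and Sox9 and Col9a2 were highest in KO4. The sum of the 6 markers of alveolar type 1 cells was lower in the pair, at 2394 and 2139 CPM, against 2972 to 3158 CPM. Ager and Cldn18 made up most of it, and not every marker was lower. Hopx was highest in the pair, at 191 and 172 CPM against 115 to 153 CPM. Rtkn2 lay inside the range of the other libraries. The 10 club cell markers summed to 14630 and 12530 CPM, against 18100 to 20900 CPM, and Scgb1a1 made up most of this sum. Their median deviation did not set the pair apart (-0.04 in WT6 and -0.12 in KO5, with WT2 lowest at -0.14), and Scgb3a1 was higher in the pair. The 7 markers of alveolar type 2 cells had their lowest median deviation in KO5 (-0.26), with -0.05 in WT6. No marker of these lists was at 0 in every library. The part of exon length or of these cell types in the heavy chain values was not tested.

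**Figure D4:**
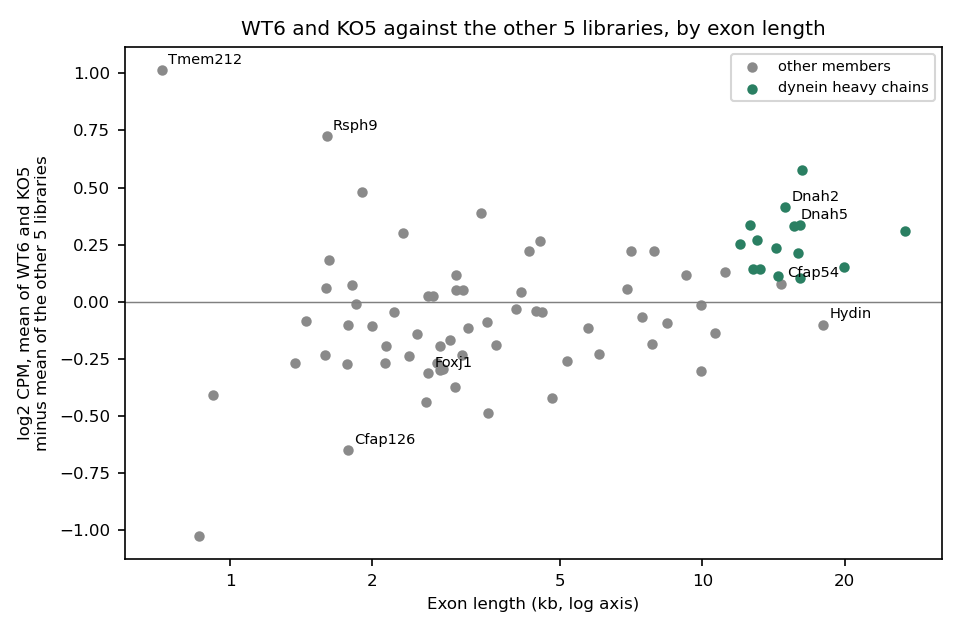
Mean log2 CPM of WT6 and KO5 minus that of the other 5 libraries (vertical axis) against exon length in kilobases (horizontal axis, log scale) for the tested members with a known length. All 15 heavy chains, in green, lie above 0 (median 0.25), while Hydin and Cfap54 of similar length lie at -0.10 and 0.08.

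Cilia genes outside the naming rule had values of the same size. Of 50 further motile cilia genes in a list drawn up with earlier results known, 48 were measured and tested. Of these, 33 had negative values and 15 positive ones, with a median of -0.08 and 0 calls in edgeR. Over all genes tested, 52.0% of values were negative. Their median deviation was also highest in WT2 (0.12) and lowest in KO4 (-0.13). Ccdc65, a subunit of the nexin-dynein regulatory complex, had 4.42 to 7.07 CPM in wild type and 3.32 to 4.18 CPM in knockout libraries (log2 fold change -0.53). Iqcd, of the same complex, had 3.12 to 3.93 CPM and 1.59 to 2.75 CPM (log2 fold change -0.62). Neither passed. These 2 genes, with Iqub and Ccdc153, were the 4 of the 48 whose groups did not overlap, all lower in knockout. Over all genes tested, 1.61% did so on the lower side and 2.11% on the higher side. The 28 intraflagellar transport genes, which build primary and motile cilia alike, had a median of -0.07, with 21 negative and 7 positive values and 0 calls.

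The regulators of multiciliation, taken as 1 list, did not share the lower side, and single genes differed. Of 16 genes, 9 had positive and 7 negative values, with a median of 0.03 and 0 calls. Cdc20b (log2 fold change -0.74) lay wholly below wild type and Foxn4 (0.63) wholly above, at 7 to 18 counts per library. Over all genes tested, 1.61% lay wholly below and 2.11% wholly above. Myb, which acts early in multiciliogenesis, had 16.6 to 23.8 CPM in wild type and 16.3 to 18.9 CPM in knockout libraries. Gmnc, which encodes the geminin family factor that starts the programme, had 2.59 to 3.299 CPM and 1.52 to 2.63 CPM (log2 fold change -0.55). Mcidas was on the other side, with a log2 fold change of 0.50 at 5 to 20 counts per library. Which cells of the bulk lung the transcripts of this list came from was not measured. The X-box binding factors Rfx2 and Rfx3 had log2 fold changes of 0.23 and 0.12. Rfx3 was highest in KO5 at 49.9 CPM, against 35.9 to 41.8 CPM in the other libraries.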

How the data were processed

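The authors deposited raw counts per gene for 7 libraries of total RNA from lung. STAR, DESeq2 and mm10 are listed, per the submitters' processing notes, with no version or role. No source used here gives the counting program, annotation or strand, so overlapping genes and close copies are uncertain. Genes were compared with edgeR 4.0.16 (R 4.3.3) on all genes: low count filter by genotype (19832 of 28828 kept), TMM, robust quasi-likelihood test, genotype as the only term, two-sided, Benjamini-Hochberg adjustment over all genes, threshold 0.05. CPM use TMM-scaled totals, and log2 CPM a prior count of 2. A gene with 3 counts has 0.18 to 0.222 CPM. Positions and exon union lengths came from GENCODE M21 (GRCm38), matched by symbol for 85 members. Cfap410 and Cfap47 have none here. The procedure was tested on simulated data.

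Named members are the 7 listed by symbol, the up to 3 highest per length in each role, the 6 with the smallest p, and those whose groups do not overlap. Others were named after their values were seen. Members, lists and tests were chosen with earlier results of these data known. Alternatives were DESeq2 1.42.0, other scalings, no filter, each library left out, the shared numbers 3 and 4 as a block, and the handling of WT6 and KO5.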

Additional observations from a re-analysis of the deposited data

Results flagged for a closer look

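Among the 37 members named by rule, 2 had a wild type library far from the other 3, by the gap to the nearest library relative to the group's range. Chance gives about 1 such case in 20 groups. Tmem212 had 23.5 CPM in WT6, against 10.04 to 11.7 CPM in WT2, WT3 and WT4. Dnah7a had 16.6 CPM in WT4, against 19.3 to 19.5 CPM in the others, and it is 1 of 3 close gene copies.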

How the results depend on the processing

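The count of 0 called members held under all 14 alternatives, and the count of members with a negative log2 fold change (54 to 66 with 1 library left out) and their median (-0.11 to -0.047) kept their side. The number with all knockout values below wild type was 3 to 19 with 1 library left out and 23 with both WT6 and KO5 left out. The share of all genes also rose, from 1.61% with 7 libraries to 5.73% without KO5 and 8.26% without both. The number above was 0 to 1, and 1 with that pair left out. Over all genes, the share above was 2.11% with 7 libraries and 8.52% without that pair. Of 518 values of named genes under alternatives, 473 kept their sign and 45 turned, all for genes with a value within 0.157 of 0. The cause was not tested. With 1 library left out, these genes ranged from -0.15 to 0.0318 (Ccdc39), -0.094 to 0.12 (Dnaaf1), -0.23 to 0.0536 (Dnaaf3), -0.14 to 0.11 (Dnaaf5), -0.22 to 0.0442 (Dnal4), -0.24 to 0.0465 (Drc7), -0.13 to 0.04 (Cfap43), -0.0928 to 0.13 (Foxj1), -0.0527 to 0.12 (Odf2), -0.0437 to 0.0674 (Odf2l), -0.17 to 0.0252 (Odf3b), -0.10 to 0.0289 (Rsph10b), -0.15 to 0.0062 (Sec14l3), -0.009 to 0.14 (Tekt1), -0.30 to 0.0882 (Tekt2), -0.27 to 0.0181 (Tekt4) and -0.41 to 0.33 (Tmem212). Only numbers 3 and 4 occur in both genotypes, and nothing in the labels ties same-numbered libraries together. For this check, deviations of all genes tested were taken from the mean of each genotype. Same-numbered libraries correlated at 0.236 (number 3) and 0.201 (number 4). KO3 correlated as much with WT4 (0.236) and KO4 more with WT3 (0.221), while KO5 and WT6 correlated at 0.59. With the number as a replicate block in those 4 libraries, on 1 residual degree of freedom, 0 members were called and the median was -0.10. Values turned for Ccdc39 (0.036), Dnaaf1 (0.14), Dnal4 (0.10), Odf2 (-0.0066), Odf3b (0.11) and Tekt2 (0.26). With a term for WT6 and KO5 they turned for Dnaaf1 (0.012) and Dnaaf5 (0.0007), and without this pair for Dnaaf5 (0.0048), Dnal4 (0.0153), Foxj1 (-0.0396) and Tekt2 (0.0129). Depth limits the 6 untested members and low ones such as Tekt5, Tekt2, Dnah14 and Dnaaf2, with 10 to 45 counts per library.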
